A study of Mus musculus with 6 samples.

Results

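The fibrous sheath anchoring proteins of mouse sperm are represented here by 7 genes, Akap3, Akap4, Fscb, Fsip1, Fsip2, Ropn1 and Ropn1l, of 7210 genes with annotated transcripts in the data. The genes were chosen by symbol, and every annotated transcript with 1 of these symbols was kept, which gave 15 transcripts and 10293 reads. P/D spermatocytes (pachytene/diplotene) and round spermatids (RS) had been sorted from the testes of wild-type adult C57BL/6J/B6 male mice, with no treatment named, by DNA content, red fluorescence and light scatter after Hoechst and PI staining. The P/D samples are titled pachytene spermatocytes, and pachytene/diplotene is the study's name for the sorted cells. There were 3 samples of each cell type, each a pool of mRNA from 3 mice. Both cell types were taken from the same animals, and no source states whether equal replicate numbers mark the same pool. Native RNA was read on nanopores, so that each read gave 1 molecule of mRNA and the length of its poly(A) tail in nucleotides (nt). The 3 P/D samples were barcoded within 1 library and the 3 RS samples within another, so cell type and library cannot be told apart. By the counts of the study, a large share of the cells in the P/D gate were not P/D spermatocytes, and this gate was much less pure than that for RS.

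The fibrous sheath is the cytoskeletal cage around the axoneme in the principal piece of the sperm tail. Its main structural proteins, AKAP3 and AKAP4, hold protein kinase A (PKA) through the kinase's RII regulatory subunits, and the sheath also carries calcium-binding proteins, the glycolytic enzymes of the sperm tail and proteins with a domain like the docking domain of RII, such as ROPN1 and ROPN1L. The sheath is assembled late, in elongating spermatids, from mRNAs of which many are made earlier and stored, and the length of the poly(A) tail is one of the features by which stored and translated mRNAs of spermatids have long been told apart. The comparison of the 2 cell types asks how much of each mRNA is present during and after meiosis and how long its tail is.

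The samples held between 244004 and 474688 reads. All 10 genes of a list of round spermatid markers had reads in P/D samples, with 53 to 105 reads summed over the list in a P/D sample and 993 to 1481 in an RS sample, and the mean summed level in P/D samples was 8.84% of that in RS. The 10 genes of the list for pachytene and diplotene spermatocytes summed to 6040 to 6721 CPM (reads per 1000000 mapped reads) in P/D samples and to 3949 to 4390 in RS. Markers of Sertoli cells (2 of 8 genes found) summed to at most 2 reads in any sample, those of spermatogonia (1 of 8 genes) to at most 5 and those of Leydig cells (3 of 7 genes) to at most 7, and none of 5 macrophage markers was found. The list for leptotene and zygotene spermatocytes (2 of 8 genes found) left a larger trace, at 42 to 79 reads per P/D sample and 28 to 76 per RS sample. Its mean summed level was 237 CPM for P/D and 117 CPM for RS. As these are bulk samples, fewer cells of a type and less RNA per cell cannot be told apart.

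The mRNAs of 5 of the 7 genes accumulated to a higher level in RS than in P/D spermatocytes, namely those for the structural anchors AKAP3 and AKAP4, for FSCB, for ROPN1 and for FSIP1. Over all genes tested, 33.9% were higher in RS (edgeR, quasi-likelihood F-test, threshold of 0.05 on the adjusted p). Ropn1l and Fsip2 did not pass the test. Levels below are TMM-normalised CPM, with all reads of a gene summed, and they are not divided by transcript length because each molecule gives 1 read. Intervals are at 95% and not adjusted.

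**Figure D1:**
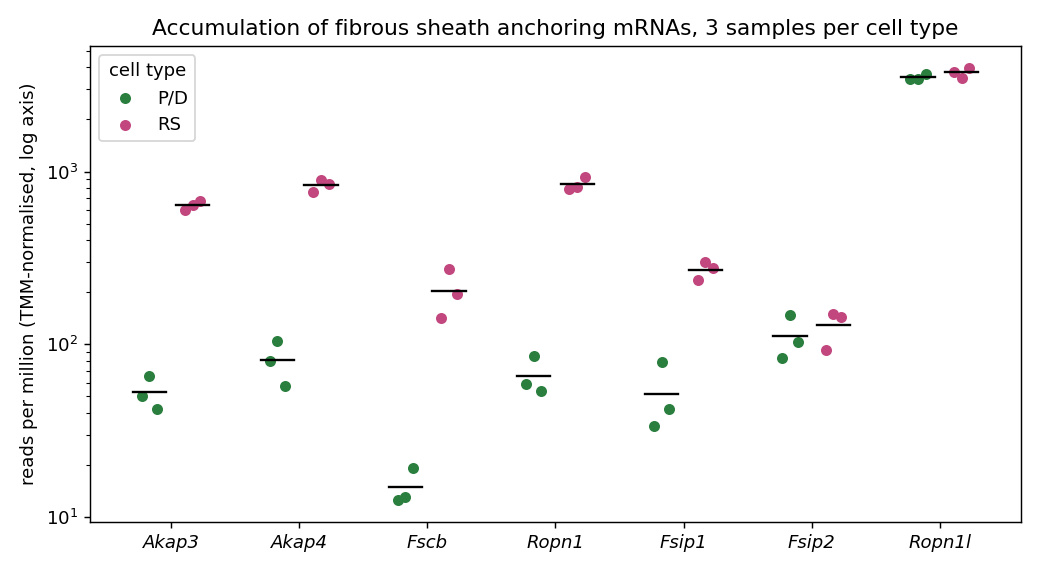
Level of each of the 7 mRNAs in each sample, in TMM-normalised CPM on a log axis, with P/D spermatocytes in green and RS in pink (dots, samples; line, mean of 3). The RS dots of Akap3, Akap4, Fscb, Ropn1 and Fsip1 lie above all their P/D dots, whereas the dots of Fsip2 and of Ropn1l overlap between the cell types.

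Akap3 encodes one of the A-kinase anchoring proteins that form the ribs and columns of the sheath. It had 12, 20 and 11 reads across the P/D samples and 180, 285 and 221 across those of RS. All RS samples exceeded all P/D samples, and the mean level went from 52.7 ± 11.8 to 638 ± 39.2 CPM (SD, n = 3), a log2 fold change of 3.57 (SE 0.19, edgeR adjusted p = 3.18e-24). Its 3 annotated transcripts on chr6:126853098-126874308 (GRCm38) had 361, 246 and 122 reads in all and log2 fold changes of 3.57, 3.37 and 3.77. All 3 transcripts rose, so the change did not depend on how the reads were divided among them.

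Akap4, on the X chromosome, encodes the most abundant protein of the sheath, made as a precursor that is cut before it is built in. It had 19, 32 and 15 reads across the P/D samples and 229, 399 and 278 across those of RS. The groups did not overlap, and the mean level went from 80.7 ± 23.5 to 836 ± 69.7 CPM (SD, n = 3), a log2 fold change of 3.35 (SE 0.17, edgeR adjusted p = 4.02e-25). Its 3 transcripts on chrX:7067519-7078609 all rose, by 3.26, 3.59 and 2.69 on the log2 scale. All 72 X-linked transcripts tested were higher in RS (100.0%), so Akap4 shared its direction with every other X-linked transcript tested. The X chromosome is silenced in pachytene spermatocytes. A transcript with few P/D reads passes the count filter only through its RS reads, so this share was partly set by the filter. The cause of the rise of Akap4 was not tested.

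Fscb encodes a calcium-binding protein of the sheath that is phosphorylated by PKA and binds CABYR. It is a gene of 1 exon on the minus strand of chr12:64471330-64474690, with 3, 4 and 5 reads across the P/D samples and 43, 121 and 64 across those of RS. It was the least abundant of the 7 mRNAs in P/D spermatocytes, at 15.0 ± 3.71 CPM, and stood at 203 ± 65.0 in RS (SD, n = 3). Its log2 fold change of 3.77 (SE 0.33, edgeR adjusted p = 3.41e-15) was the highest of the 7 genes, though the 12 P/D reads behind it leave an interval of 3.12 to 4.42.

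Ropn1 encodes ropporin, which binds AKAP3 and other anchoring proteins through its RII-like domain. It had 14, 26 and 14 reads across the P/D samples and 238, 360 and 304 across those of RS. The samples of the 2 cell types did not overlap, with means of 65.9 ± 16.8 and 843 ± 75.6 CPM (SD, n = 3) and a log2 fold change of 3.64 (SE 0.18, edgeR adjusted p = 3.57e-26). The coding transcript on chr16:34651188-34678618 and a processed transcript that ends 7 bases before it rose alike, by 3.62 and 3.59 on the log2 scale.

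Fsip1 encodes a protein named for its interaction with the sheath protein AKAP4. It had 8, 24 and 11 reads across the P/D samples and 71, 133 and 91 across those of RS, and the groups did not overlap. Its mean level went from 51.5 ± 23.9 to 271 ± 32.3 CPM (SD, n = 3), a log2 fold change of 2.35 (SE 0.23, edgeR adjusted p = 2.20e-13). This was the smallest of the 5 increases, and its interval of 1.89 to 2.81 lay below those of Akap3, Akap4, Fscb and Ropn1. No test of the difference between genes was run.

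Fsip2 encodes a very large protein that binds AKAP4, and its main transcript is 21116 bases long. It had 20, 45 and 27 reads across the P/D samples and 28, 67 and 47 across those of RS. The mean levels of 112 ± 32.5 and 129 ± 31.5 CPM (SD, n = 3) overlapped between the cell types, and the log2 fold change of 0.21 (SE 0.23, interval -0.24 to 0.65, edgeR adjusted p = 0.435) did not pass the test. The main transcript of Fsip2 turned from 0.19 to -0.024 on the log2 scale without P/D replicate 1.

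Ropn1l encodes a relative of ropporin that also carries the RII-like domain and is a component of the radial spokes of the axoneme as well. It was by far the most abundant of the 7 mRNAs, with 823, 1049 and 949 reads across the P/D samples and 1141, 1555 and 1307 across those of RS, or 6824 of the 10293 reads. Its levels of 3511 ± 121 and 3759 ± 251 CPM (SD, n = 3) overlapped between the cell types, and the log2 fold change of 0.10 (SE 0.08, interval -0.07 to 0.26, edgeR adjusted p = 0.307) did not pass the test. Among transcripts with at least 10 counts in every sample alone, its log2 fold change was 0.27 with an adjusted p of 0.00765 by edgeR. On this scale Ropn1l exceeded Ropn1 53.3-fold in P/D spermatocytes and 4.46-fold in RS.

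Counted by transcript, 11 of the 13 member transcripts tested were higher in RS, where 32.6% of the 6005 transcripts tested were, and none was lower, where 30.8% were. A log2 fold change of at least 3 was reached by 8 of the 13, all of Akap3, Akap4, Fscb and Ropn1, and by 11.7% of all transcripts tested. Some of the 13, such as that of Fscb with 3, 4 and 5 P/D reads, passed the count filter only through their RS reads. For such transcripts a lower level in RS could hardly be called, so these counts were partly set by the filter. Transcripts of the same gene were counted separately. The remaining transcript of Fsip1, Fsip1-204, had no read in any P/D sample and 4, 16 and 6 in the RS samples, which made it at least 6.20-fold higher in RS when 3 counts over the P/D group were taken as the floor and raw library totals as the scale. It and the short Fsip2-201, with 2, 4 and 1 reads in P/D and 1, 2 and 7 in RS, had too few reads to be tested.

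Beside these increases stand the levels of the spermatid markers in the P/D samples. The P/D level was 8.26% of the RS level for Akap3, 9.66% for Akap4, 7.36% for Fscb and 7.82% for Ropn1, where the round spermatid list as a whole was at 8.84% and a list of genes of elongating spermatids at 9.68%. For Fsip1 it was 19.0%, for Fsip2 86.5% and for Ropn1l 93.4%. The list of elongating spermatids includes Hdgfl1, with 359 P/D and 392 RS reads, which raised the percentage of that list. No gene of either spermatid list was at 0 in the P/D samples, and the part of spermatids in the P/D reads of Akap3, Akap4, Fscb and Ropn1 was not tested.

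The promoters of the genes that rose most are shown because they share short runs of bases. Each stretch holds 110 bases before the RefSeq start of transcription and the 7 bases from it (GRCm38.p6, strand of the gene), and capitals mark matches to TGATGTCA or TGAGGTCA, variants of the cyclic AMP response element TGACGTCA. Of the 7 genes, 6 matched the promoter table, and Fsip1 had no entry.
Akap3, chr6:126852988-126853104: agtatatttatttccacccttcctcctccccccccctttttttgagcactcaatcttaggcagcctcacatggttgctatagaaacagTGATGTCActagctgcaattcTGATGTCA
Akap4, chrX:7067405-7067521: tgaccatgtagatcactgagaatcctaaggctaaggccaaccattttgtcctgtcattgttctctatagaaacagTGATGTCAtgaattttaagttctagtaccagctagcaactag
Fscb, chr12:64474892-64475008: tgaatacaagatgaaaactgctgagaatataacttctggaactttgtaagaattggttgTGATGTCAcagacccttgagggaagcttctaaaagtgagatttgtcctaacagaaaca
Ropn1, chr16:34651101-34651217: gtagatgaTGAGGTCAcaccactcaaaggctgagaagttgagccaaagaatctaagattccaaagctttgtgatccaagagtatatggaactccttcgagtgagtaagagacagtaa
Fsip2, chr2:82943524-82943640: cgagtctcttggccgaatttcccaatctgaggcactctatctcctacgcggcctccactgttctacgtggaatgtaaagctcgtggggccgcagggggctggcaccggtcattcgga
Ropn1l, chr15:31453683-31453799: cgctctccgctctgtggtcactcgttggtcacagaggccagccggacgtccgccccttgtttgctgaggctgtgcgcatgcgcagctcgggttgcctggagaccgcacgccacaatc

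TGATGTCA began 22 bases before the start in Akap3, 35 before it in Akap4 and 51 before it in Fscb, and a second match in Akap3 began 1 base before the start. TGAGGTCA began 102 bases before the start of Ropn1. Neither these letters nor TGACGTCA were found on either strand in the 300 bases listed for Fsip2, for Ropn1l or for a second start of Akap4. In Akap3 and Akap4 the match is the end of a shared run of 20 bases, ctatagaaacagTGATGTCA, which no other of the 32851 promoters in the table held.

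The letters were searched after the sequences and the levels had been seen, so what follows is a description without a test. TGATGTCA occurred on either strand in 3.62% of all promoters of that length, TGAGGTCA in 2.17% and TGACGTCA in 1.79%. Of 158 genes tested for accumulation that held TGATGTCA, 72.8% rose in RS and the median log2 fold change was 2.97, against 31.9% and -0.07 for the 3619 genes without it. For TGAGGTCA the share was 54.9% of 102 genes, and for TGACGTCA 35.9% of 156 genes. Akap3, Akap4 and Fscb are themselves among the 158 genes, and Ropn1 is among the 102. A gene with few P/D reads passes the count filter only through its RS reads, so these shares were also partly set by the filter. A match of letters does not show that a factor binds there.

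The tails of 3 of the 7 mRNAs were longer in RS. Ropn1l and Fsip2, whose levels did not pass the test, had tails 53.9 and 45.3 nt longer, and Fsip1, which was called higher in level as well, had tails 21.3 nt longer. Akap3, Akap4 and Ropn1 had mean tails of 160 to 178 nt in P/D spermatocytes and of 164 to 173 nt in RS, and Fscb lay between these with a difference of 13.1 nt. Summed by gene, 3 of the 7 were called longer in RS by limma, where 54.9% of all genes tested were, and the median transcript of all had a mean tail 37.4 nt longer in RS.

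**Figure D2:**
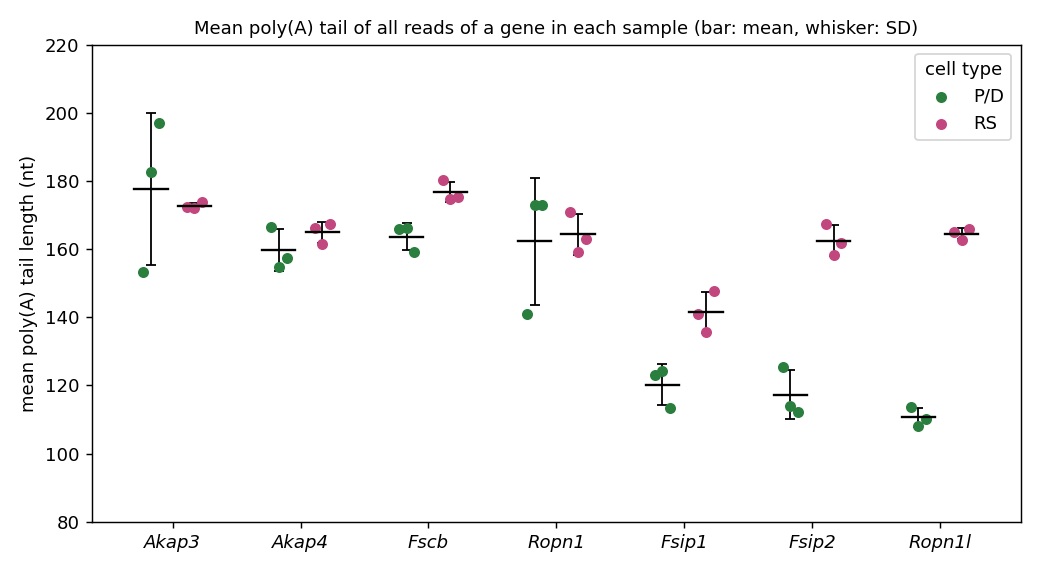
Mean poly(A) tail of all reads of each gene in each sample, in nt, with P/D spermatocytes in green and RS in pink (dots, samples; line, mean of 3; whisker, SD). In P/D spermatocytes Akap3, Akap4, Fscb and Ropn1 lie at means of 160 to 178 nt and Fsip1, Fsip2 and Ropn1l at 111 to 120 nt, whereas in RS all but Fsip1, at 141 nt, lie at 163 to 177 nt.

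Ropn1l had mean tails of 114, 108 and 110 nt in the P/D samples and of 165, 163 and 166 nt in the RS samples. The samples of each cell type lay within 6 nt of each other and the groups were far apart, with a difference of 53.9 nt (SE 5.28, limma adjusted p = 0.000552, by transcript). Its medians were 95.5, 95.3 and 96.0 nt in P/D and 164, 163 and 165 nt in RS. The difference ranged from 52.6 to 55.4 nt when each replicate was left out in turn.

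With 823 to 1555 reads in each sample, Ropn1l is the only 1 of the 7 whose tail distribution can be followed in detail in both cell types. In the mean of the P/D samples the most populated bin of 20 nt was that from 60 to 80 nt, with 17.2% ± 0.952 of the reads, though in P/D replicate 3 the bin from 40 to 60 nt held slightly more reads (161 against 155). In RS it was that from 160 to 180 nt, with 23.4% ± 0.592 (SD, n = 3). The quartiles of the P/D reads spanned 63.7 to 158 nt, from the lowest lower quartile to the highest upper quartile of the 3 samples, and those of the RS reads 139 to 188 nt. Tails under 30 nt made up 1.60% ± 0.871 of the P/D reads and 0.115% ± 0.102 of the RS reads. The share of tails of 30 to 120 nt went from 63.0% ± 2.55 to 11.4% ± 0.983 and that of 120 to 210 nt from 28.9% ± 1.59 to 78.5% ± 1.55, with no overlap between the groups and an exact permutation p of 0.1 for either class, two-sided, the smallest that 3 samples against 3 can give.

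**Figure D3:**
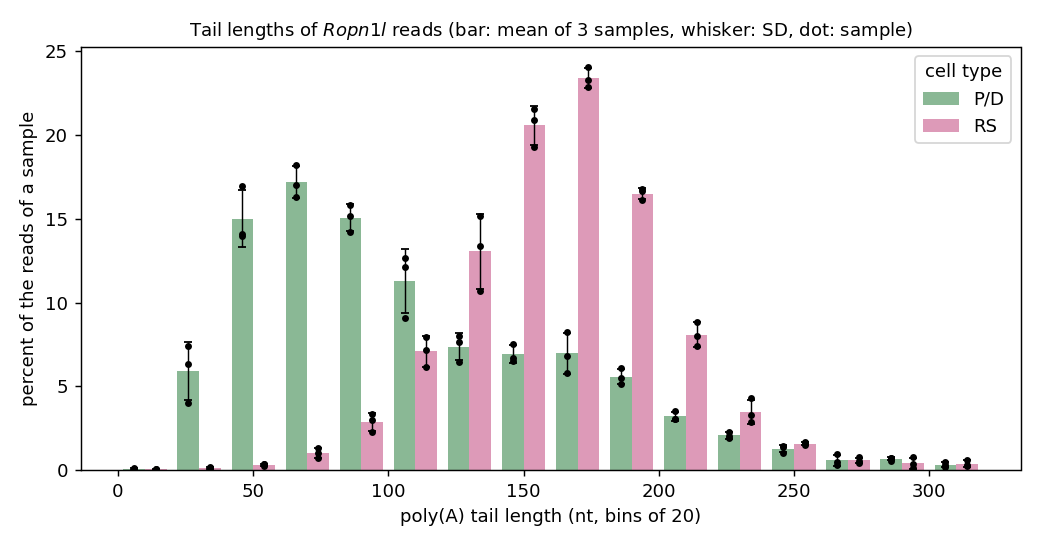
Share of the Ropn1l reads of a sample, in percent, in each bin of 20 nt of tail length up to 320 nt, with P/D spermatocytes in green and RS in pink (bar, mean of 3 samples; whisker, SD; dot, sample). The P/D reads peak in the mean at 60 to 80 nt with a long shoulder to 200 nt, and the RS reads form 1 peak at 160 to 180 nt.

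Fsip2 had mean tails of 125, 114 and 112 nt in the P/D samples and of 167, 158 and 162 nt in the RS samples. All RS samples exceeded all P/D samples, and the main transcript differed by 49.1 nt (SE 6.12, limma adjusted p = 0.00103). With only tails of 10 to 300 nt kept, this difference was 31.3 nt (limma adjusted p = 0.00585). Its RS reads were more spread than those of Ropn1l, with an SD over single reads of 73.4 to 84.2 nt in a sample against 38.4 to 41.6 nt. Of the Fsip2 reads in RS, 40.6% ± 5.72 had tails of 30 to 120 nt and 23.7% ± 4.03 had tails of 210 nt and more, so a mean near 163 nt stood over a broad range rather than 1 peak, and the medians of 130, 146 and 144 nt were lower than the means.

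Fsip1 had mean tails of 123, 124 and 113 nt in the P/D samples and of 141, 136 and 148 nt in the RS samples. The groups did not overlap, and the difference of 21.3 nt over all its reads was called (SE 5.95, limma adjusted p = 0.0229). Over its 3 transcripts the tails varied more than for any other of the genes, as described below. In RS, 35.9% ± 1.92 of its reads still had tails of 30 to 120 nt, against 51.3% ± 6.53 in P/D spermatocytes.

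Akap3 had mean tails of 153, 183 and 197 nt in the P/D samples and of 172, 172 and 174 nt in the RS samples. The RS values lay inside the range of the P/D values, and the difference of -4.89 nt was not called (interval -32.6 to 22.8, limma adjusted p = 0.740). The P/D means rested on 11 to 20 reads each, and P/D replicate 1 stood lowest. Without that sample the tail of the main transcript was called shorter in RS, with a difference of -18.6 nt (limma adjusted p = 0.0404).

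Akap4 had mean tails of 167, 155 and 158 nt in the P/D samples and of 166, 161 and 167 nt in the RS samples. The groups overlapped, and the difference of 5.35 nt was not called (interval -8.03 to 18.7, limma adjusted p = 0.447). That interval ended below the median difference of 37.4 nt over all transcripts. The RS tails of Akap4 were narrowly spread, with an SD over single reads of 33.0 to 36.8 nt in a sample and 87.8% ± 1.16 of the reads between 120 and 210 nt.

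Ropn1 had mean tails of 141, 173 and 173 nt in the P/D samples and of 171, 159 and 163 nt in the RS samples. The groups overlapped, with a difference of 2.11 nt that was not called (interval -22.7 to 26.9, limma adjusted p = 0.875). The processed transcript Ropn1-203 alone passed the test without P/D replicate 2, at 24.6 nt (limma adjusted p = 0.0399), and not with all samples, at 4.30 nt (adjusted p = 0.854). The pair Ropn1 and Ropn1l thus had RS tails within 1 nt of each other in the mean, at 164 ± 5.99 and 165 ± 1.62 nt, and P/D tails of 162 ± 18.5 and 111 ± 2.83 nt (SD, n = 3).

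Fscb had mean tails of 166, 166 and 159 nt in the P/D samples and of 180, 175 and 175 nt in the RS samples. The groups did not overlap, but the difference of 13.1 nt was not called (interval 0.89 to 25.3 by gene, limma adjusted p = 0.0660). All 12 P/D reads had tails between 120 and 210 nt, and so did 85.7% ± 7.44 of the RS reads.

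By gene, 4 of the 7, Fscb, Fsip1, Fsip2 and Ropn1l, had every RS sample above every P/D sample in tail length, where 62.3% of genes with a mean in all samples did. By transcript, 3 of the 13 tested were called longer in RS, Ropn1l-201, Fsip2-203 and Fsip1-201, against 54.2% of the 6990 transcripts tested. None was called shorter, against 1.69% of all. The 10 member transcripts that were not called had between 5 and 45 P/D reads in all, and the upper ends of their 95% intervals reached up to 85.3 nt, for Akap3-203. For Akap3-202, Akap4-201, Akap4-203, Fscb-201 and Ropn1-201 the interval ended below the median difference of 37.4 nt, and for the other 5 it did not.

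In P/D spermatocytes the order of the mean tails was Akap3 (178 ± 22.2 nt), Fscb (164 ± 3.92), Ropn1 (162 ± 18.5), Akap4 (160 ± 6.17), Fsip1 (120 ± 6.01), Fsip2 (117 ± 7.17) and Ropn1l (111 ± 2.83; SD, n = 3). Neighbours overlapped in their ranges throughout, except for Akap4 and Fsip1, between which the order breaks. In RS the order was Fscb (177 ± 2.96 nt), Akap3 (173 ± 0.852), Akap4 (165 ± 3.06), Ropn1l (165 ± 1.62), Ropn1 (164 ± 5.99), Fsip2 (163 ± 4.48) and Fsip1 (141 ± 5.96). Here Akap4, Ropn1l, Ropn1 and Fsip2 overlapped, and Fscb, Akap3 and Fsip1 were each apart from their neighbour.

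Set against Ropn1l within the same sample, the Akap4 tails were 52.8, 46.6 and 47.5 nt longer in the P/D samples and differed by 1.07, -1.24 and 1.43 nt in the RS samples. The mean tails of the 2 mRNAs were thus far apart in the P/D samples and alike in RS. Whether the P/D reads of Akap4 came from P/D spermatocytes was not tested. For Fscb the excess over Ropn1l was 52.0, 58.0 and 49.1 nt in P/D and 15.2, 12.1 and 9.45 nt in RS. Fsip1 stood 9.24, 16.1 and 3.20 nt above Ropn1l in the P/D samples and below it in RS, with differences of -23.9, -27.1 and -18.3 nt.

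Taken as the mean over the 7 genes with equal weight, the share of tails of 30 to 120 nt was 31.1%, 29.1% and 27.6% in P/D replicates 1 to 3 and 16.8%, 17.5% and 15.2% in those of RS. That of tails of 120 to 210 nt was 59.7%, 59.5% and 60.7% in P/D and 69.8%, 69.9% and 73.7% in RS. Neither class overlapped between the cell types, and the two-sided exact permutation p was 0.1 for both, the smallest that the design allows. The mean rested unequally on the genes. The share of tails of 30 to 120 nt differed by -51.6 percentage points for Ropn1l, -15.4 for Fsip1 and -13.3 for Fsip2, but by -0.434 for Akap3 and 3.43 for Fscb. In the class of 120 to 210 nt the difference was 49.6 points for Ropn1l and -14.3 for Fscb, whose P/D share rests on 12 reads. With 180 nt as the upper bound of the longer class, its difference was 5.99 percentage points in place of 11.2.

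The changes in level and in tail are set side by side for all transcripts in the scatter of tail difference against fold change. Among 3370 transcripts whose log2 fold change lay between -1 and 1, where Ropn1l and Fsip2 lie, the median tails were 108 nt in P/D and 159 nt in RS, and 73.5% were called longer. Among 648 transcripts with a log2 fold change of 3 or more, which hold the main transcripts of Akap3, Akap4, Fscb and Ropn1, the medians were 159 and 165 nt, 7.87% were called longer, and the median transcript had 2.33 P/D reads per sample. In the class between 2 and 3, which holds Fsip1-201, Fsip1-202 and Akap4-203, the P/D median was 142 nt and 22.2% of 388 were called. The members of each class thus lay among many other transcripts of like fold change. The classes were set after the values had been seen, and both axes share the same reads, so no test was run.

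**Figure D4:**
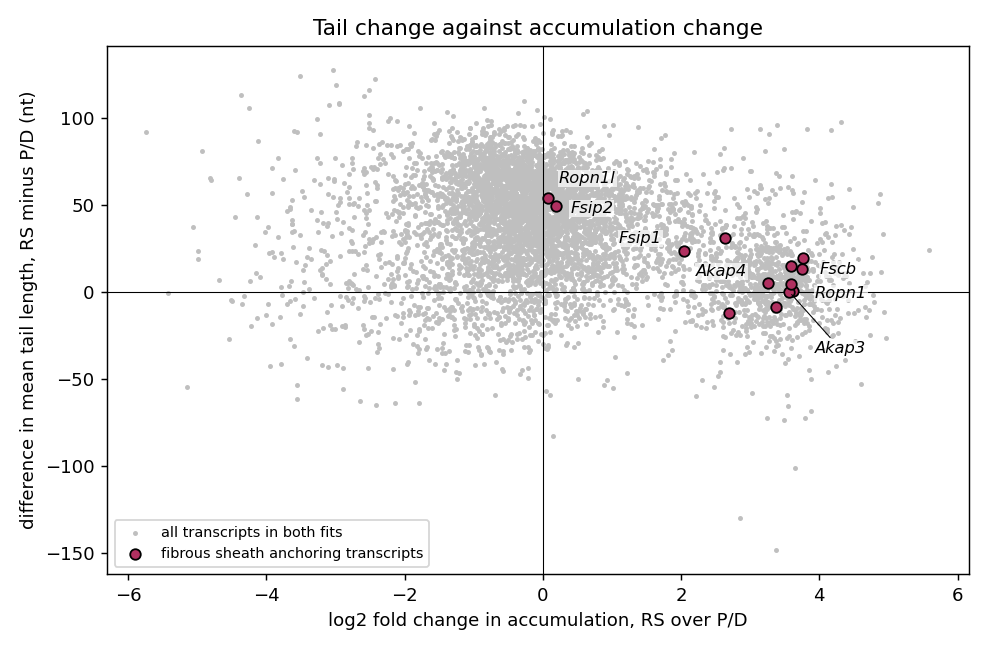
Difference in mean tail length between RS and P/D spermatocytes, in nt, against the log2 fold change in accumulation, RS over P/D, for every transcript in both fits (grey) and for the 13 member transcripts tested (red, main transcripts named). Ropn1l and Fsip2 sit in the dense cloud near a fold change of 0 and tail gains of 53.9 and 49.1 nt, and Akap3, Akap4, Fscb and Ropn1 in the cloud above a log2 fold change of 3 near a tail difference of 0.

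The round spermatid marker list moved with these values, since its tails were 181 ± 7.87 nt in the P/D samples and 185 ± 1.28 nt in RS (SD, n = 3), while the list for pachytene and diplotene spermatocytes had 129 ± 3.39 and 155 ± 4.64 nt. The list of elongating spermatids, by contrast, had means of 133 nt in the P/D samples and 145 nt in RS over its pooled reads. Most of its RS reads came from Prm1, Prm2, Tnp1 and Tnp2 (9595, 5228, 5256 and 4560 reads). Its Hdgfl1 had 359 P/D and 392 RS reads. Of its genes in the related lists, the transcripts of Odf1, Smcp and Gapdhs with most reads had P/D means of 174, 168 and 167 nt. The spermatid lists were thus not alike in pooled tail length. The P/D tails of Akap3, Akap4, Fscb and Ropn1, at 160 to 178 nt, lay between those of the 2 spermatid lists, and those of Ropn1l, Fsip2 and Fsip1 lay below the P/D tails of all 3 lists. Whether these P/D reads came from P/D spermatocytes or from spermatids in the gate was not tested.

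The 3′ ends of the transcripts are shown because the tail is added there. Each line gives the last 30 bases of the annotated GENCODE vM21 transcript, with its genomic end position on GRCm38. Capitals mark the polyadenylation hexamer AATAAA or, where that is absent, ATTAAA.
Akap3-201, chr6:126874308: cataaATTAAAagattacagttaaagggca
Akap4-201, chrX:7078609: ctgggcaacatgAATAAAaaaattcaaaaa
Fscb-201, chr12:64471330: gacaatgAATAAAagcagtcacaatgtaaa
Ropn1-201, chr16:34678618: actAATAAAcaattagccaggagcatgtgg
Fsip2-203, chr2:83008937: ctataaAATAAAatgatatttaaagtagaa
Ropn1l-201, chr15:31441211: tggcgccaaatacagcttgtcattacctgt
Fsip1-201, chr2:118244664: actgaataAATAAAtgagtcaagatgcagc
Fsip1-204, chr2:118130424: ttcaatatttgaattcccttctttgctgat

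Whether the reads end at these annotated positions was not tested, and neither was a link between hexamer and tail. AATAAA was found in Fsip2, which gained tail, and in Akap4, Fscb and Ropn1, which were not called, while Akap3 carried ATTAAA and the annotated end of Ropn1l neither within 30 bases. Over 6901 transcripts, 55.1% held AATAAA, 12.9% only ATTAAA and 32.0% neither. Their median tail differences were 38.0, 34.8 and 37.0 nt, so the 3 classes lay within 4 nt of each other.

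Fsip1 is the 1 gene of the 7 whose annotated transcripts end at clearly separate places, among them 118244664 for Fsip1-201 and 118130424 for Fsip1-204 on chromosome 2, minus strand. Fsip1-201, the shortest, with 6 exons, had mean tails of 171, 162 and 165 nt in the RS samples. Fsip1-202, with 11 exons and most of the reads, had 130, 138 and 147 nt. Fsip1-204 had 118, 69.0 and 79.8 nt, on 4, 16 and 6 reads. Within each RS sample the order was the same, with Fsip1-201 above Fsip1-202 by 41.1, 24.3 and 17.3 nt and Fsip1-204 below it, with differences of -11.6, -69.2 and -67.5 nt. The comparison was limited to RS after the read numbers had been seen, and no test was run.

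Against P/D spermatocytes, Fsip1-201 was called 31.0 nt longer in RS (SE 7.56, limma adjusted p = 0.0192), from means of 141 and 129 nt on 4 and 5 reads in P/D replicates 2 and 3, with none in replicate 1. The call was lost without RS replicate 1, at 28.6 nt (adjusted p = 0.0632). It was also lost in a fit blocked by replicate, at the same difference (adjusted p = 0.0997). Fsip1-202 was 23.6 nt longer without passing the test (SE 8.74, limma adjusted p = 0.0604). The exons of Fsip1 overlap those of Gm29232, a noncoding transcript annotated on the same strand, so that some of these reads cannot be assigned with certainty.

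**Figure D5:**
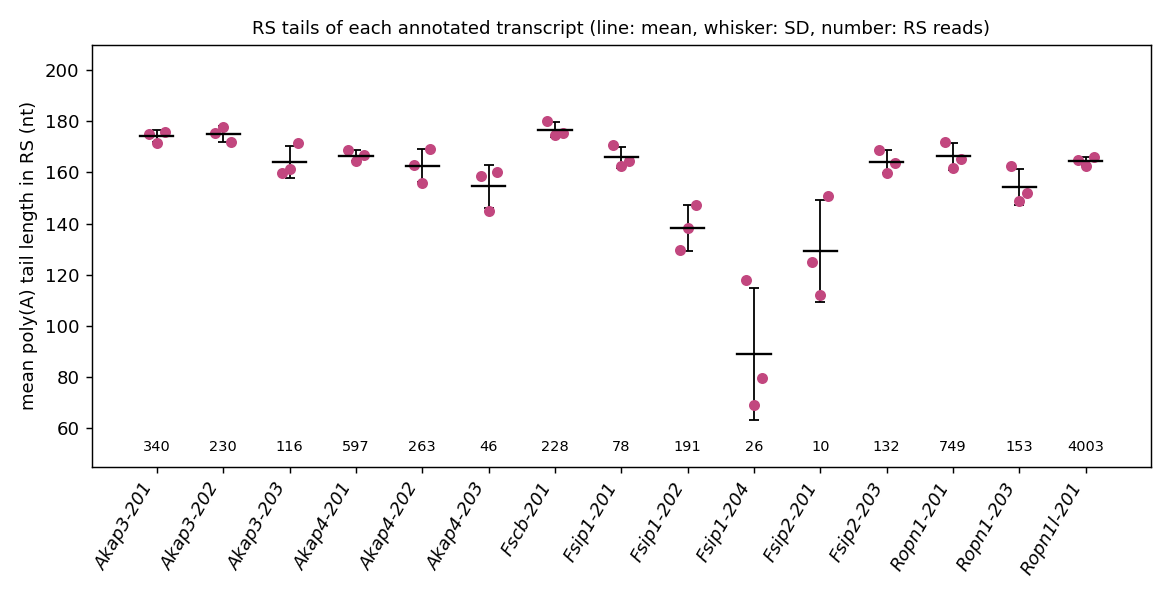
Mean poly(A) tail in RS, in nt, of each of the 15 annotated transcripts of the 7 genes (dots, the 3 RS samples; line, mean; whisker, SD; number, RS reads in all). The transcripts of Akap3, Akap4 and Ropn1 lie between 154 and 175 nt in the mean, whereas the 3 of Fsip1 are spread from 88.9 to 166 nt.

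Transcripts of the other genes share their 3′ ends or nearly so, and reads starting at the 3′ end divide them with less certainty. In RS the tails of Akap3-202 differed from those of Akap3-201 by 0.959 ± 5.23 nt and those of Akap4-202 from Akap4-201 by -3.94 ± 5.42 nt (SD, n = 3), within the spread between samples. Akap3-203 had shorter tails than Akap3-201 in all RS samples, with differences of -15.2, -10.2 and -4.30 nt, and so had Akap4-203 against Akap4-201, with differences of -10.1, -19.3 and -6.82 nt. The processed transcript Ropn1-203 had shorter tails than the coding Ropn1-201 in all RS samples, with differences of -9.68, -12.7 and -13.1 nt. Fsip2-201 ends at the same base as Fsip2-203 and also had shorter tails in all RS samples. The differences were -43.8, -47.8 and -12.9 nt, on only 1, 2 and 7 reads of Fsip2-201.

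For each main transcript the 3 transcripts of other genes most like it were found among 5916, by Euclidean distance over tail and log2 level in both cell types, each standardised. Among the 3 closest to Akap3 were Tex48 and Aif1, and closest to Akap4 were Tssk2, a kinase of spermatids, garin5a and Scp2d1. Closest to Fscb were Ttc23l, Acsbg2 and Gpd2, and closest to Ropn1 were Fam229a, Rnf151 and Cypt4. Ropn1l lay nearest to Pebp1, Meig1 and Pabpc1, the last of which encodes the cytoplasmic poly(A)-binding protein, and Fsip2 to Polr1d, dnai1 and Reep2. Fsip1 had Cep41, Ppil6 and Rnf19b as its nearest. The closest single match was Polr1d to Fsip2 (distance 0.0771), with tails of 115 and 164 nt and levels of 105 and 132 CPM, and the least close was Pabpc1 to Ropn1l (distance 0.653).

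The partners of these proteins were taken from 5 related lists, of which 36 of 49 genes were found. In the lists together 43 of 69 transcripts tested had longer tails in RS and none shorter, and 42 of 64 were higher in level and 10 lower, against 54.2% and 1.69% for tails and 32.6% and 30.8% for levels over all transcripts. The median tail difference was 44.8 nt and the median log2 fold change 1.16, beside 37.4 nt and -0.03 over all. As for the member transcripts, the counts for level were partly set by the count filter.

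Of the kinase held by the sheath, 4 of the 7 genes listed for PKA subunits and the soluble adenylyl cyclase were found. Prkar2a, which encodes the RII alpha subunit that AKAPs bind, had 0, 2 and 1 reads across the P/D samples and 36, 57 and 29 across those of RS and was called higher (edgeR adjusted p = 4.00e-11). Prkaca, which encodes the catalytic subunit, fell by 1.08 on the log2 scale (SE 0.34, adjusted p = 0.00572), from 19, 16 and 15 reads to 5, 16 and 11. Prkar1a, of the RI class, was not called in either transcript, with log2 fold changes of 0.15 and 0.29 and tail differences of 1.24 and 1.88 nt. The tails of Adcy10, the soluble cyclase, were called longer in 2 of 4 transcripts.

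Among other A-kinase anchoring proteins (9 of 18 genes found), 9 of 14 transcripts tested had longer tails in RS, and 8 of 13 were higher and 4 lower in level. Akap1, which anchors PKA at mitochondria, rose in all 3 of its transcripts, by 3.27, 3.93 and 3.60 on the log2 scale, from 0 to 4 reads in a P/D sample. Their mean tails of 165, 163 and 168 nt in RS stood against 172, 98.9 and 122 nt in P/D, where the few reads gave SDs of 21.9 to 67.6 nt, and no tail difference passed the test (limma adjusted p of 0.631, 0.112 and 0.120). Akap12, a scaffold of the cell cortex, rose in all 4 transcripts, by 1.50 to 3.08 on the log2 scale, and the tails of the first listed went from 133 ± 3.63 to 191 ± 9.89 nt. Rsph3a, an anchor in the radial spokes, went from 269, 371 and 335 reads in the P/D samples to 190, 236 and 151 in RS, a log2 fold change of -1.19 (adjusted p = 1.33e-11), while its tails lengthened from 79.7 ± 2.66 to 135 ± 3.10 nt (limma adjusted p = 0.000556). Its reads may be shared with the near-identical Rsph3b, which fell by 0.84 on the log2 scale with a tail gain of 60.2 nt.

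Other proteins of the sheath or with RII-like domains (all 7 genes found) had 6 of 13 transcripts with longer tails, and 9 of 12 higher and 1 lower in level. Spa17, which has the RII-like domain, was like Ropn1l in its tails, which went from 104 ± 3.37 to 168 ± 0.576 nt (limma adjusted p = 0.00049), and rose by 0.70 on the log2 scale. Txndc2, a thioredoxin of the sheath, rose by 4.11 on the log2 scale with tails of 166 ± 20.3 and 164 ± 9.69 nt. The transcripts of Cabyr, the calcium-binding partner of FSCB, that were tested for level rose by 3.29 to 4.33. Their tail differences were 40.5, -19.4 and 21.9 nt, and only the last was called (limma adjusted p = 0.0476). Slc25a31, an adenine nucleotide carrier, fell by 2.17 on the log2 scale, from 21, 32 and 18 reads to 4, 7 and 10.

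Of the glycolytic enzymes held in the sheath, all 12 genes were found, 17 of 23 transcripts had longer tails, and 14 were higher and 4 lower in level. Gapdhs encodes the sperm form of glyceraldehyde-3-phosphate dehydrogenase. Its transcript with most reads resembled Akap4, with a log2 fold change of 3.39 and tails of 167 ± 6.16 and 176 ± 1.50 nt. Its other transcript tested, with 2, 1 and 3 P/D reads, had tails 67.9 nt longer in RS (limma adjusted p = 0.00919). Aldoart2 resembled Akap4 as well, with a log2 fold change of 3.85 and tails of 166 ± 0.961 and 173 ± 1.87 nt. Pgam2 and Ldhc, by contrast, fell slightly, by 0.27 and 0.38 on the log2 scale, with tails 73.0 and 54.3 nt longer in RS. Proteins of the outer dense fibres and mitochondrial capsule (4 of 5 genes found) had 9 of 11 transcripts with longer tails and 9 of 11 with higher levels. Odf1 rose by 3.49 on the log2 scale with tails of 174 ± 8.19 and 177 ± 1.50 nt, whereas all 6 transcripts of Odf2 had tails called longer, by 41.6 to 56.7 nt. The level of the Odf2 transcript with most reads was not called (log2 fold change of 0.24), and the other 5 were higher in RS, by 0.75 to 1.41.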

How the data were processed

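The authors basecalled and demultiplexed native RNA reads, aligned them with minimap2 (2.20-r1061 in the submitters' processing notes) to GENCODE transcripts of GRCm38 with repeat-element sequences added, and measured each tail with Nanopolish. They deposited raw read counts per transcript and a table of the poly(A) tail length of each read, in nt; for every transcript the count equalled the number of reads in the tail table.

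Samples were grouped by labelled cell type. The members and lists were chosen with earlier results of these data known. Mean tails per sample were tested with limma 3.58.1 over 6990 annotated transcripts (a minimum of 10 reads in 2 or more replicates of a cell type and a mean in 2 or more of each), and counts with edgeR 4.0.16 over 6005 (TMM, filterByExpr, glmQLFTest), with Benjamini-Hochberg adjustment and a threshold of 0.05. An edgeR SE is the log2 fold change over the root of F. DESeq2 1.42.0 was an alternative. The 597 repeat-element contigs were left out of the tests. The tests were checked on simulated data. For tails, the check required calls only of transcripts with many reads in every sample, so it does not cover members with few P/D reads. A gene's reads were also summed over its transcripts and refitted over 5372 genes for tails and 4940 for counts. All 7 members and every transcript found were named, genes of the related lists by order and read number, and the nearest transcripts by distance over 4 standardised measures. Nothing in the sources says that equal replicate numbers mark the same pool of mice. A few items of the 3′ ends and nearest transcripts are not reported here.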

Additional observations from a re-analysis of the deposited data

How the results depend on the processing

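Reads limit what can be said of Akap3, Akap4, Fscb, Fsip1 and Ropn1 in P/D spermatocytes, where a sample gave 3 to 32 reads of a gene and a mean tail could shift with a single read. The 95% interval of the tail difference by gene was -32.6 to 22.8 nt for Akap3 and -22.7 to 26.9 nt for Ropn1. The 3 samples of a cell type came from 1 library, so p-values measure the spread within libraries and not between them, and the purity of the sort enters every P/D value. The cause of each change below was not tested unless fewer transcripts, samples or reads were used by construction.

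Tails of 3 member transcripts were called longer in RS. With at least 20 reads required in every sample 1 was tested and 1 called, and with 10 reads in 2 replicates of both cell types 2 of 4 were called. Without each replicate in turn, 2 to 3 were called longer and 0 to 1 shorter, the latter being Akap3-201 without P/D replicate 1. Ropn1l-201 and Fsip2-203 were called under all settings in which they were tested, though Fsip2-203 was at 31.3 nt with tails of 10 to 300 nt only, and Fsip1-201 was lost with medians (adjusted p = 0.0792) or weights by reads (adjusted p = 0.137). Fsip1-202 was called with medians (adjusted p = 0.0330) and Fscb-201 by the methods' t-test, whose call is given as an alternative only.

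The direction of small tail differences depended on the setting. Akap3-201, at -0.12 nt, was at 7.57 nt with medians and at 0.026 on the log2 scale, and between -18.6 and 10.4 nt without single replicates. Ropn1-201, at 0.56 nt, was at -7.52 nt with medians, -2.01 with weights by reads and -1.37 with tails of 10 to 300 nt only, and between -8.52 and 7.16 nt without single replicates. Without single replicates, Akap3-203 lay between -10.3 and 46.2 nt and Ropn1-203 between -8.86 and 24.6 nt.

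In accumulation, 11 of 13 member transcripts were higher in RS, 12 of 15 by DESeq2 or without a filter, 5 of 7 by gene and 3 of 4 with at least 10 counts in every sample, where Ropn1l was the only 1 of those left to change its call, at a log2 fold change of 0.27. The count stayed at 11 without each replicate in turn, and the log2 fold change of Fsip2-203 lay between -0.024 and 0.46. Of the related lists, 19 of 32 genes had longer tails and 21 of 32 were higher when transcripts were summed, and 0 to 1 transcripts had shorter tails without single replicates (1 without P/D replicate 2 and 1 without RS replicate 3). The longer tail class, 11.2 percentage points higher in RS, was 5.99 higher with an upper bound of 180 nt.

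Both cell types came from the same mice, but nothing states that equal replicate numbers mark the same pool, and same-numbered samples deviated together too little to show it. The correlations of their deviations from the group means over 1827 transcripts were -0.01, 0.08 and 0.02 for tails and 0.03, 0.24 and 0.07 for levels, for replicates 1, 2 and 3. With the replicate block, 2 member transcripts were called longer, with Fsip1-201 lost at 28.6 nt (adjusted p = 0.0997), and 11 were higher in level. The lists had 40 transcripts with longer tails and 42 with higher levels under the block.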
